A study of Rattus norvegicus with 8 samples.

Results

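The miRNAs of the miR-192, miR-194 and miR-215 hairpins were followed in the kidneys of rats treated with aristolochic acid (AA) and of control rats. They were found by name, as every row of the deposited table that begins with miR-192, miR-194 or miR-215, on either arm of the hairpin and in either letter case, and the rule used no measured value. Of the 620 miRNAs in the table, 6 were found, namely rno-miR-192, rno-miR-194 and, without the prefix for the rat, miR-192*, miR-194*, mir-194-1* and miR-215. The star marks the arm of a hairpin that is usually the less abundant one. All 8 rats were male Big Blue transgenic animals on the Fisher 344 background, and the transgene was therefore shared by both groups. The 4 AA-treated rats received AA, which is found in Aristolochia plants and damages the kidney, as the sodium salt by gavage at 10 mg per kg body weight in 4 ml per kg, 5 times a week from an age of 6 weeks. The 4 control rats were given 0.9% sodium chloride on the same days. The treatment protocol gives 12 weeks for every rat, whereas the description of each sample states 12, 13, 14 and 15 weeks for rat 1, rat 2, rat 3 and rat 4 of both groups, and an age of 18 weeks for all of them. Each library was made from a piece of 1 kidney, and the labels do not say from which zone of the organ it was cut.

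miR-192 and miR-194 are miRNAs of absorptive epithelia and are known as abundant in the kidney tubule, the intestine and the liver. They are transcribed together from shared primary transcripts, under the control of hepatocyte nuclear factors and, in some cells, of p53. In kidney research miR-192 is known for its link to TGF-beta signalling and for its target Zeb2, whose product represses E-cadherin. A miRNA finds its target mRNAs mainly through its seed, the bases 2 to 8 from the 5′ end, so that miRNAs with the same seed are counted as 1 family.

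The mature sequences below are shown because they divide these miRNAs into seed families. They were taken from RefSeq (build GRCr8) and are written 5′ to 3′ with the seed in capitals. All 4 hairpins, Mir192, Mir194-2, Mir194-1 and Mir215, were matched there, and the starred names of the table were read as the 3p arms.
miR-192: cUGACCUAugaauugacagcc
miR-215: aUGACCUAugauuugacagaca
miR-194: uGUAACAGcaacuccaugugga
miR-192*: cUGCCAGUuccauaggucacag
miR-194*: cCAGUGGGgcugcuguuaucu
miR-192 and miR-215 share the seed UGACCUA, which no other mature rat miRNA of the RefSeq table holds. Over the 21 bases of miR-192, miR-215 differed from it at 3 positions counted from the 5′ end, C1A, A12U and C20A. A read is therefore assigned to one or the other by these positions, and how reads with a mismatch there were handled is not given in the sources used here. miR-194 has a seed of its own, GUAACAG. miR-192 and miR-194* are 21 nt long and the others 22 nt, while the gel band cut for the libraries is described as holding RNA of 22 to 30 nt. The effect of this cut on the counts was not tested.

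The 4 hairpins lie in pairs at 2 loci of the GRCr8 build. Mir194-2 (chr1:212994024-212994108) and Mir192 (chr1:212994209-212994318) lie 100 bases apart on the plus strand of chromosome 1, between the protein-coding genes Atg2a and Ehd1. Mir194-1 (chr13:99382716-99382798) and Mir215 (chr13:99382990-99383086) lie 191 bases apart on the plus strand of chromosome 13, inside the span of Iars2, the gene of a mitochondrial isoleucyl-tRNA synthetase. The 2 hairpins of miR-194 are shown because they hold the same mature miRNA and differ in the rest, with the mature sequences of the RefSeq table in capitals.
Mir194-2: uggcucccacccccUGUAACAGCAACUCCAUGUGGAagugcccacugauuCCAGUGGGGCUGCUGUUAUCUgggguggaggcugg
Mir194-1: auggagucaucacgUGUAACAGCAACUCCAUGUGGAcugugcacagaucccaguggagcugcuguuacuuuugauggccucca
A read of miR-194 can thus come from either locus. miR-194* is listed in RefSeq under Mir194-2, and its best ungapped match in the Mir194-1 hairpin has 3 mismatches in 21 bases.

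The libraries held 13412373 to 15616670 counts on miRNAs, and the ranges of both groups overlapped. Normalized counts, used below, are the counts over a size factor per library (0.818 to 1.28), and no library repeated another. In every library, 35 listed miRNAs of nephron and collecting duct epithelium summed to 237343 to 346379 CPM, the count scaled to the library's total. They include miR-10a, the miR-30 family and the miR-200 family, and most of the sum was miR-30a, miR-10a-5p and miR-30e. As no other tissue was compared, this sum cannot check the tissue label. Control rat 4 stood apart from the other control rats. Among the 240 miRNAs with a mean of at least 100 normalized counts, 13 were more than 2-fold above the mean of the other 3 control rats in this library, against 0 or 1 in each of the others. Below 0.5 times that mean it had 5, within the 3 to 7 of the others. AA-treated rat 4 had 13 miRNAs more than 2-fold above the mean of the other AA-treated rats and 19 below 0.5 times it, against 3 or 4 above and 9 to 14 below in each of the others. Differences of the described miRNAs and their ratios between the groups are given with and without these rats where they move them. The likeness between miRNAs and the correlation of miR-192 with miR-194 were not computed without both of these rats.

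Nearly all counts of these 6 miRNAs were miR-192. In control rats 1 to 4 it had 437492, 331037, 346834 and 920176 counts, which made it the 7th most abundant miRNA in rats 1 to 3 and the 4th in rat 4. In AA-treated rats 1 to 4 it had 340818, 263484, 292838 and 477224 counts, at ranks 8, 9, 8 and 7. miR-194 ranked 31 or 32 in the control rats and 35, 41, 39 and 51 in the AA-treated rats. The 6 miRNAs together took 3.08%, 2.45%, 2.43% and 6.92% of the counts in control rats 1 to 4. They took 2.71%, 1.89%, 2.27% and 3.15% in AA-treated rats 1 to 4, with a 95% Wilson interval of at most 0.0134 percentage points on either side. In both groups the rat numbered 4 had the highest share, and the groups overlapped (p = 0.371 in a two-sided exact permutation test of 4 rats against 4). The mean share differed by -1.22 percentage points between AA-treated and control rats, by -0.15 without control rat 4 (exact permutation p = 0.743) and by -0.36 without both rats numbered 4 (exact permutation p = 0.4). miR-192 made up 91.7% to 93.6% of this sum in the 6 rats numbered 1 to 3, 96.8% in control rat 4 and 97.1% in AA-treated rat 4. Counts of different miRNAs are compared here on the scale of reads, on which the adaptor ligation of each sequence bears as well.

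**Figure D1:**
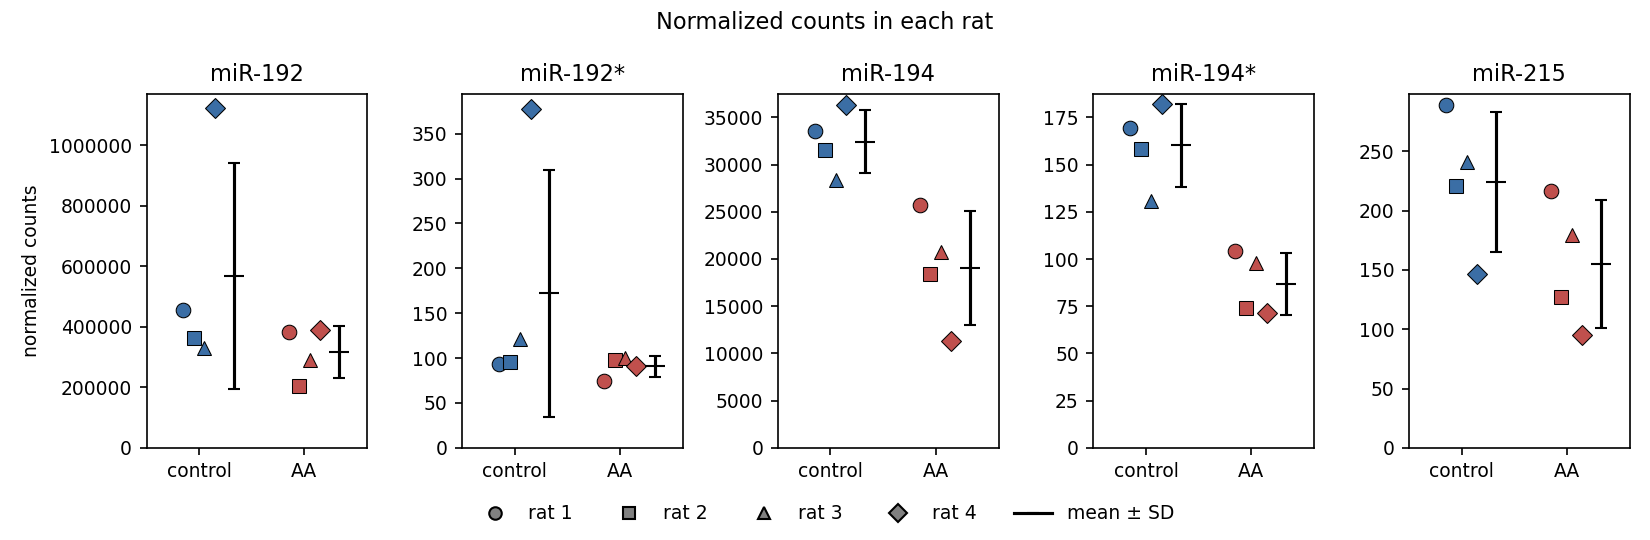
Normalized counts (vertical axes, each from 0) of 5 miRNAs in the control and AA-treated (AA) rats, with a marker shape for each rat number and the mean ± SD of the 4 rats of a group at the side. For miR-194 and miR-194* every AA-treated rat lies below every control rat, and for miR-192 and miR-192* control rat 4 lies far above the other 7 rats.

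In the comparison of the groups, 1 of the 6 miRNAs, miR-194*, was differentially expressed, with an adjusted p under 0.05 (edgeR, quasi-likelihood, adjusted over all 620 miRNAs by Benjamini and Hochberg) and a fold change over 1.5. In this comparison 9.03% of all miRNAs were differentially expressed, 3.23% with the lower level in the AA-treated rats and 5.81% with the higher. These shares include many rows with few counts. When only the 305 miRNAs with at least 10 counts in every library were tested, 51 were differentially expressed. Of these, 29 were higher and 22 lower in the AA-treated rats, with miR-194 and miR-194* among the lower ones. In 2 of the 6, miR-194 and miR-194*, every AA-treated rat was below every control rat, which held for 6.61% of all miRNAs and for 12.1% of the 240 miRNAs with a mean of at least 100 normalized counts, while 16.3% of all miRNAs had no overlap in either direction. The 5 miRNAs with more than 1 count in a library all had negative log2 fold changes, from -0.92 to -0.54. The median over the 370 miRNAs with a mean of at least 10 normalized counts was 0.02. Without control rat 4, miR-192* had -0.19 and miR-192 had -0.28 by edgeR. The 5 values are not independent, since miR-192 and miR-192* share a hairpin, as do miR-194 and miR-194*. The libraries were of bulk tissue, in which fewer cells of a type and less RNA per cell cannot be told apart.

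miR-194, the partner of miR-192 at the chromosome 1 locus, had 33602, 31523, 28345 and 36274 normalized counts in control rats 1 to 4. In AA-treated rats 1 to 4 it had 25740, 18365, 20712 and 11305. No AA-treated rat reached the lowest control rat, and AA-treated rat 4 was the lowest of all. Control rats averaged 32436 ± 3350 and AA-treated rats 19030 ± 5999 (SD over 4 rats each), so that the level after AA was 0.587 times that of the controls. The log2 fold change was -0.77 with a standard error (SE) of 0.23. Its adjusted p was 0.0515 by edgeR, just outside the threshold, and the exact permutation test gave p = 0.0286, the smallest that 4 rats against 4 allow. Leaving out AA-treated rat 1 gave -0.95 with an adjusted p of 0.0160, and taking the rat number as a block gave -0.82 with an adjusted p of 0.0362, both by edgeR and past both thresholds. Leaving out AA-treated rat 4 gave -0.58 (edgeR, adjusted p = 0.0686), and leaving out both rats numbered 4 gave -0.52 (edgeR, adjusted p = 0.0880). Omitting any single rat other than AA-treated rat 1 left miR-194 outside the threshold, with an adjusted p from 0.0584 to 0.121 by edgeR.

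miR-194*, the opposite arm of the Mir194-2 hairpin, was counted far less often, with 138 to 163 reads in a control rat and 88 to 99 in an AA-treated rat. In normalized counts it had 169, 158, 131 and 182 in the control rats and 104, 74.1, 97.6 and 71.7 in the AA-treated rats, again without overlap of the groups. The averages were 160 ± 21.8 and 86.9 ± 16.5 (SD over 4 rats each), a level that was 1.84-fold lower with AA. By edgeR the log2 fold change was -0.88 (SE 0.25) and the adjusted p 0.0386, and the exact permutation test gave p = 0.0286. This call was lost without any of control rats 1, 2, 3 or 4 and without AA-treated rat 2, 3 or 4, with values from -0.97 to -0.79 and an adjusted p from 0.0519 to 0.112 by edgeR.

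mir-194-1*, the corresponding arm listed for the chromosome 13 hairpin of miR-194, had 1 count in control rat 3 and 0 in the other 7 libraries. A count of 0 allows up to 3 counts, or 0.192 to 0.224 CPM at these depths, and no fold change is given. The floor and the counting intervals given here cover counting error only, since PCR reads are not independent molecules. miR-194*, the 3p arm of the chromosome 1 hairpin, was at 5.64 to 10.8 CPM in the same libraries.

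miR-192, the most abundant of these miRNAs, had 454738, 363575 and 328824 normalized counts in control rats 1 to 3 and 1124303 in control rat 4. In AA-treated rats 1 to 4 it had 382451, 205633, 288778 and 388616. The control rats were thus spread widely by 1 animal, and the other 3 overlapped with the AA-treated rats. The averages were 567860 ± 374743 and 316369 ± 86814 (SD over 4 rats each), 1.79-fold lower with AA, and the log2 fold change was -0.84 (SE 0.36). The difference did not pass the threshold by edgeR (adjusted p = 0.168) or in the exact permutation test (p = 0.171). Leaving out control rat 4 gave -0.28 (edgeR, adjusted p = 0.485), and the size of the difference therefore rested mainly on this rat. Leaving out both rats numbered 4 gave -0.38 (edgeR, adjusted p = 0.393).

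miR-192*, the opposite arm of the same hairpin, had 90, 87, 128 and 309 reads in control rats 1 to 4 and 66, 125, 102 and 112 in AA-treated rats 1 to 4. The 309 reads of control rat 4 had an exact 95% Poisson interval of 276 to 345, above the upper limit of 152 for control rat 3, the next highest library. In normalized counts miR-192* had 93.5, 95.6, 121 and 378 in the control rats and 74.1, 97.6, 101 and 91.2 in the AA-treated rats. Both arms of the Mir192 hairpin were thus high in control rat 4, miR-192 at 2.94 times and miR-192* at 3.65 times the mean of the other control rats. In the same rat miR-194 was at 1.16 times and miR-194* at 1.19 times that mean. For miR-192* edgeR gave -0.92 (SE 0.41) with an adjusted p of 0.200, the exact permutation test also gave p = 0.200, and the value was -0.19 without control rat 4.

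miR-215, the seed relative of miR-192 at the chromosome 13 locus, had 278, 201, 254 and 120 reads in control rats 1 to 4. In AA-treated rats 1 to 4 it had 193, 163, 182 and 117 reads. It was lowest in the rat numbered 4 of either group, where miR-192 was highest. In normalized counts the control rats had 289, 221, 241 and 147, and the AA-treated rats 216.6, 127, 179 and 95.3, so that the groups overlapped. The averages were 224 ± 59.2 and 154.6 ± 53.9 (SD over 4 rats each). A log2 fold change of -0.54 (SE 0.30) did not pass the threshold by edgeR (adjusted p = 0.304), and the exact permutation test gave p = 0.1429. Leaving out control rat 4 gave -0.71 (edgeR, adjusted p = 0.197), leaving out AA-treated rat 4 gave -0.36 (edgeR, adjusted p = 0.511) and leaving out both gave -0.51 (edgeR, adjusted p = 0.235). With total counts the value was -0.32 (edgeR, adjusted p = 0.496).

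**Figure D2:**
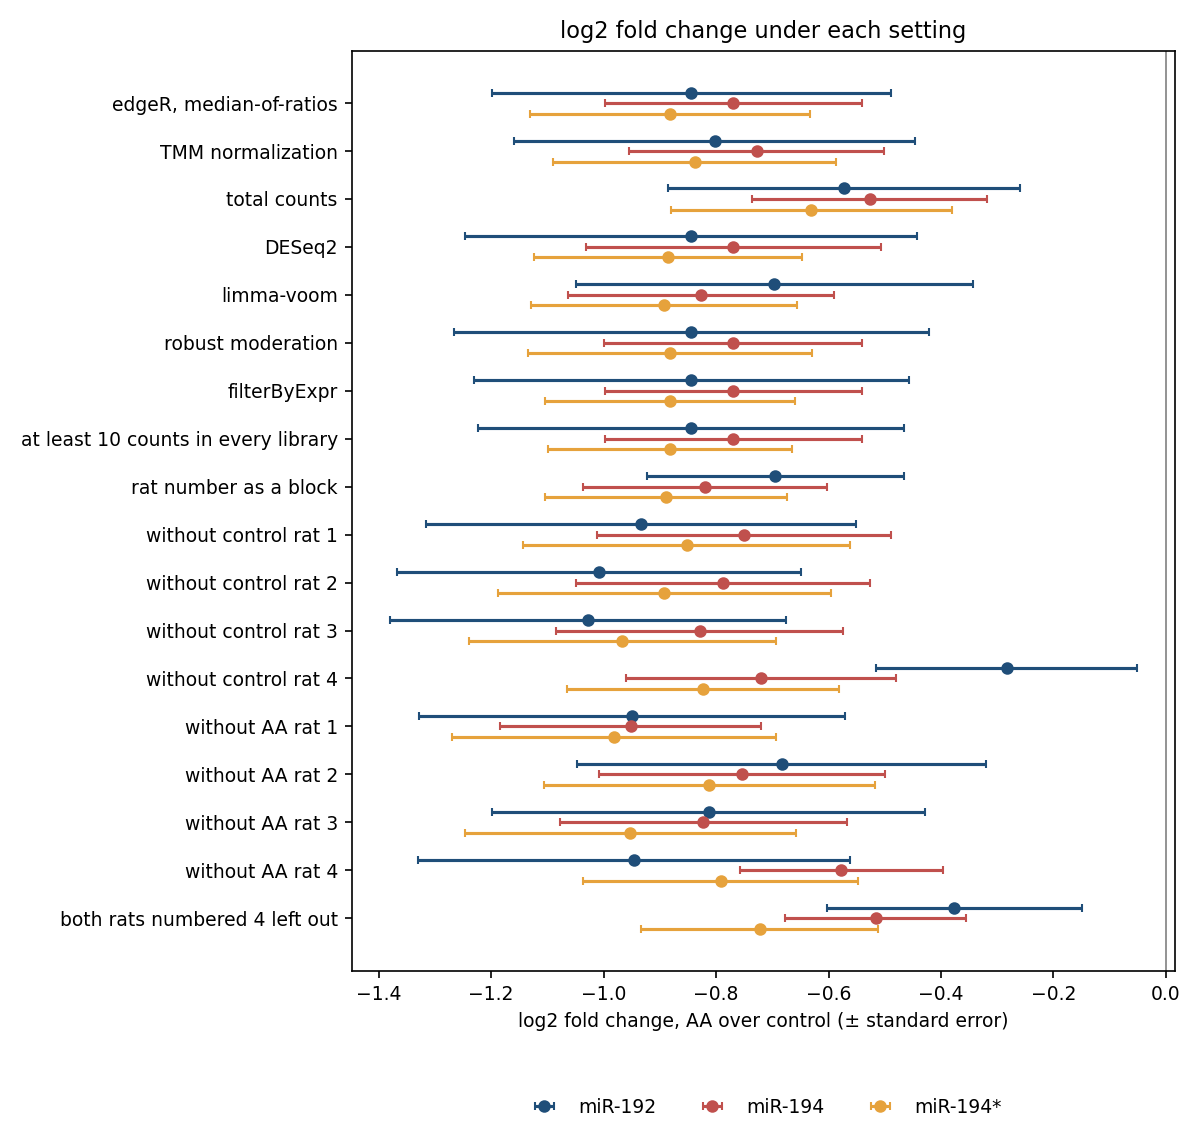
log2 fold change of AA-treated over control rats (horizontal axis, points with bars of 1 standard error) for miR-192, miR-194 and miR-194* by edgeR with median-of-ratios size factors (top line) and under 17 other settings. All points lie below 0, and that of miR-192 moves from -0.84 to -0.28 without control rat 4.

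The scaling of the libraries bears on these values. Over all 620 miRNAs the median log2 fold change was 0.05 with the size factors, 0.09 with TMM factors and 0.31 with total counts. The direction was negative for all 5 miRNAs under each of the 3 scalings. Relative to the median of all miRNAs, their log2 fold changes lay between -0.96 and -0.58 with the size factors, between -0.96 and -0.59 with TMM and between -0.94 and -0.63 with total counts. With total counts miR-194 had a log2 fold change of -0.53 and miR-194* of -0.63, both with an adjusted p of 0.122 by edgeR, and neither was differentially expressed. A ratio of 2 miRNAs within a library does not depend on this choice.

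The reads of miR-192 per read of miR-194 were 13.5, 11.5, 11.6 and 31.0 in control rats 1 to 4 and 14.9, 11.2, 13.9 and 34.4 in AA-treated rats 1 to 4. In both groups the ratio was thus within a narrow range in the rats numbered 1 to 3, from 11.2 to 14.9, and more than 2-fold higher in the rat numbered 4. No difference of the ratio between the groups was detected, with a mean log2 ratio of 3.94 in control and 4.07 in AA-treated rats (two-sided exact permutation p = 0.6). In control rat 4 the high ratio went with a high miR-192, and in AA-treated rat 4 with a low miR-194, which was at 0.523 times the mean of the other AA-treated rats while miR-192 was at 1.33 times. The labels give these 2 rats no more in common than their number and the 15 weeks in their descriptions.

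The reads of miR-192 per read of miR-215 lay between 1365 and 1766 in the 6 rats numbered 1 to 3, and were 7668 in control rat 4 and 4079 in AA-treated rat 4. The reads of miR-194 per read of miR-215, which join the 2 loci, were 116, 142.8, 118 and 247 in control rats 1 to 4. They were 119, 144.4, 115 and 119 in AA-treated rats 1 to 4. Apart from control rat 4, the ratio thus stayed within 115 to 144.4 in both groups. miR-194 had 198, 199.3, 216.6 and 199.2 reads per read of miR-194* in control rats 1 to 4, and 247, 248, 212 and 158 in AA-treated rats 1 to 4. miR-192 had between 2710 and 4861 reads per read of miR-192* in the control rats and between 2108 and 5164 in the AA-treated rats. None of 6 ratios tested, that of miR-192* to miR-194* included, differed between the groups beyond the spread between rats (two-sided exact permutation tests of 4 rats against 4, unadjusted p from 0.6 to 0.943, adjusted p = 0.943 for each after Benjamini and Hochberg).

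**Figure D3:**
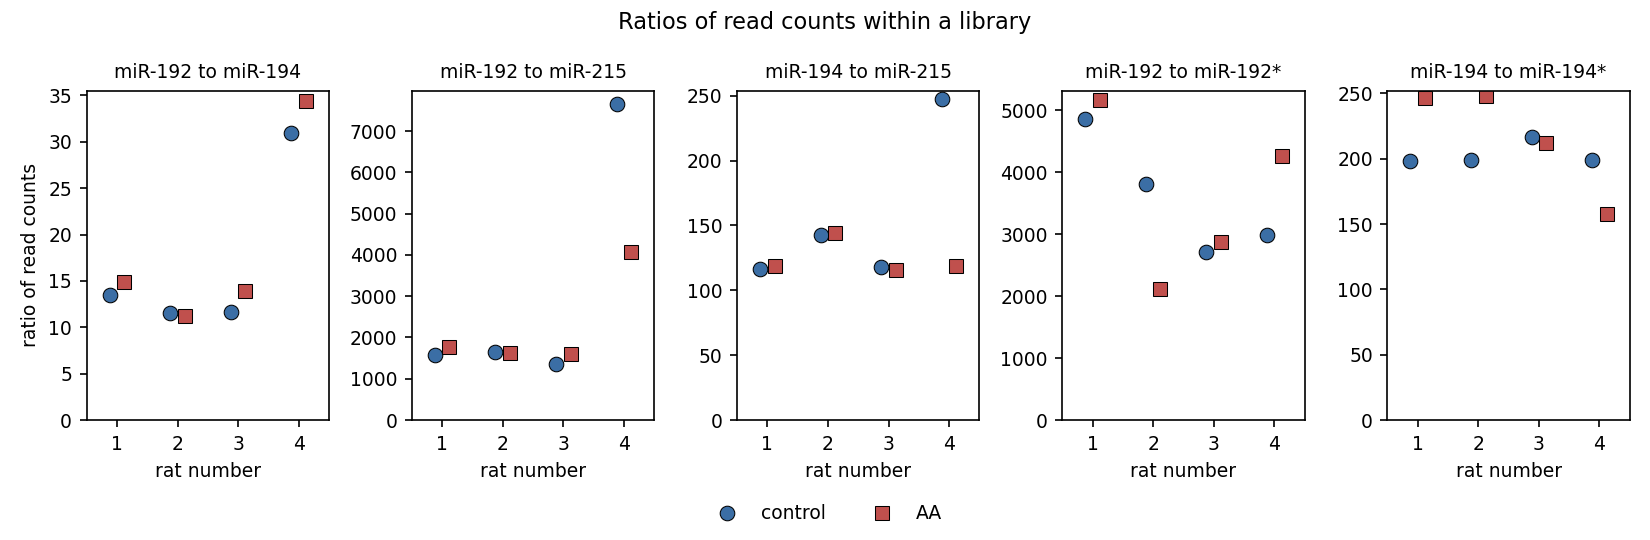
Ratio of read counts within a library (vertical axes, each from 0) by rat number, with circles for control and squares for AA-treated (AA) rats. The ratio of miR-192 to miR-194 is 31.0 and 34.4 in the rats numbered 4 and 11.2 to 14.9 in the others, whereas that of miR-194 to miR-215 is apart in control rat 4 only.

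Over the 8 rats, the log2 normalized counts of miR-192 and miR-194 had a Pearson r of 0.50 (exact permutation p = 0.203) and a Spearman rho of 0.57 (exact permutation p = 0.151). Without control rat 4 and AA-treated rat 2, the rats farthest from the median of miR-192, r was 0.15 (exact permutation p = 0.743, n = 6). This was the only relation of this kind computed, and over all 8 rats it was not shown to hold. Leaving out these 2 rats narrowed the range of miR-192 and kept AA-treated rat 4, with its low miR-194. The correlation without both rats numbered 4 was not computed. In the other 6 rats the ratio of miR-192 to miR-194 lay between 11.2 and 14.9.

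As a measure of likeness, the SD of the log2 ratio to miR-192 or to miR-194 over the 8 rats was computed for the 239 other miRNAs with a mean of at least 100 normalized counts. It is small where a miRNA follows the other from rat to rat. miR-194 was at rank 60 for miR-192 with an SD of 0.65, behind miR-192* at rank 16 with 0.45 and miR-194* at rank 27 with 0.53, and ahead of miR-215 with 0.88. For miR-194, miR-215 was at rank 28 with an SD of 0.38 and miR-192 at rank 123 with 0.65. These SDs and ranks include both rats numbered 4 and were not computed without them. In the other rats miR-192 had 11.2 to 14.9 reads per read of miR-194 and 1365 to 1766 per read of miR-215. Per read of miR-192* it had 2108 to 5164, a wider span. The order of the ranks therefore describes all 8 rats and not those numbered below 4. The 5 miRNAs most like miR-192 were miR-139-3p (SD 0.25), miR-30c-2* (0.26), miR-27b (0.28), miR-218 (0.29) and miR-184 (0.32). Each of these was high in control rat 4 as well, at 1.85 to 2.90 times the mean of the other control rats, and none was differentially expressed between the groups. The 5 most like miR-194 were miR-140* (SD 0.15), miR-191 (0.19), miR-134 (0.19), miR-541 (0.21) and miR-194* (0.21). miR-140* had a log2 fold change of -0.73 (edgeR, adjusted p = 0.0252) and miR-191 of -0.68 (adjusted p = 0.0658). For miR-134 it was -0.72 (edgeR, adjusted p = 0.158) and for miR-541 -0.65 (edgeR, adjusted p = 0.200). In AA-treated rat 4 these 5 were at 0.380 to 0.779 times the mean of the other AA-treated rats, as miR-194 was at 0.523. These miRNAs were chosen for a small SD over the same 8 rats. Their values in the rats numbered 4 and their differences between the groups therefore follow in part from the choice. The list is a description of these 8 libraries and carries no test of likeness, and the adjusted p-values given with it are no support for one.

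The other miRNAs of nephron and collecting duct epithelium were set beside miR-192 and miR-194 as a list of 35 rows. Of these, 1 fell and none rose in the same test, where 3.23% of all 620 miRNAs fell and 5.81% rose, so that the share that fell was near that of all miRNAs. The one that fell was miR-204, a miRNA of renal and ocular epithelium, at -0.86 on the log2 scale (edgeR, SE 0.24, adjusted p = 0.0357). Of the 24 rows with a mean of at least 10 normalized counts, 20 had negative values and the median log2 fold change was -0.26, where 180 of all 370 such miRNAs were negative. This median was -0.12 with both rats numbered 4 left out and -0.39 without AA-treated rat 3. Among the abundant members, miR-30a had a log2 fold change of -0.22 (adjusted p = 0.496), miR-10a-5p of -0.30 (adjusted p = 0.460) and miR-200b of -0.32 (adjusted p = 0.403), whereas miR-200c had 0.37 (adjusted p = 0.333), all from edgeR.

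miRNAs known as markers of other cells were read in the same libraries. The 11 leukocyte rows summed to 1948 to 2755 CPM in the control rats and to 3527 to 6103 in the AA-treated rats, without overlap, with none at 0 in every library. This rise lay mainly in 1 row, since the other 10 summed to 1268 to 1733 CPM in control and 1396 to 2041 CPM in AA-treated rats, which overlapped. That row, miR-142-3p, a miRNA of blood cells, rose by 1.42 on the log2 scale (edgeR, adjusted p = 7.92e-04). miR-223, a myeloid miRNA, rose by 0.96 (edgeR, adjusted p = 0.0231), and no other leukocyte row passed both thresholds. Thus 2 of the 11 leukocyte rows rose and none fell, where 5.81% of all 620 miRNAs rose and 3.23% fell. Of the 9 rows with a mean of at least 10 normalized counts, 2 had negative values, miR-146a, the most abundant row in the control rats, with -0.14 and miR-342-3p with -0.30. The 9 rows of stroma and smooth muscle summed to 161488 to 220318 CPM in the control rats and to 152547 to 184275 in the AA-treated rats, and none passed both thresholds. The 3 rows of the endothelial miR-126 hairpin, at 8432 to 9772 and 7493 to 9464 CPM, and the 4 red cell rows, at 699 to 1054 and 268 to 964, included none past both thresholds either. In lists this short, no call is near the 5.81% and 3.23% of all miRNAs. The liver miRNA miR-122 and its star arm summed to 47.9, 4.02, 6.44 and 4.51 CPM in control rats 1 to 4 and to 0.671, 654, 3.11 and 1.28 CPM in AA-treated rats 1 to 4. Over rows with a mean of at least 10 normalized counts, the median log2 fold change was 0.26 for leukocytes, 0.16 for stroma, -0.23 for endothelium, -0.71 for red cells and 2.85 for liver. The liver value rested on AA-treated rat 2, without which it was -4.77. The leukocyte median was 0.45 and the red cell median -0.46 without AA-treated rat 4, and the stroma median was 0.05 without control rat 4 and 0.09 without AA-treated rat 3. The part of the leukocyte and liver miRNAs in the values of miR-192, miR-194 and their star arms was not tested.

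As miR-192, miR-194 and miR-215 are known as p53-responsive in other cells, the other miRNAs of that kind were read in the same fit. Of 15 listed rows, 6 rose and 1 fell, beside 5.81% and 3.23% of all miRNAs. All 6 that rose were arms of miR-34a, miR-34b and miR-34c, direct targets of p53, with log2 fold changes from 3.33 to 4.42 and adjusted p from 1.28e-07 to 2.14e-04 by edgeR. The one that fell was miR-107, at -0.77 (edgeR, adjusted p = 0.0386). miR-143, miR-145 and miR-200c had log2 fold changes of -0.41, 0.22 and 0.37, none past the threshold, and the median over the 14 rows with a mean of at least 10 normalized counts was 0.29, or 0.18 without AA-treated rat 2 and 0.19 without control rat 4.

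Of 24 rows listed for kidney fibrosis and TGF-beta signalling, 2 rose and 1 fell, a count near the 5.81% and 3.23% of all miRNAs. miR-21 and its star arm, known to increase in fibrotic kidney, rose with log2 fold changes of 1.94 (adjusted p = 2.76e-04) and 1.58 (adjusted p = 0.00184), and miR-382* fell with -1.61 (adjusted p = 0.0113), all from edgeR. The antifibrotic miR-29a, miR-29b and miR-29c had log2 fold changes of -0.01, 0.16 and -0.18 with adjusted p from 0.630 to 0.983 in edgeR. The median over the 17 rows with a mean of at least 10 normalized counts was -0.01, and it lay on either side of 0, from -0.09 to 0.16, when rats were left out.

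**Figure D4:**
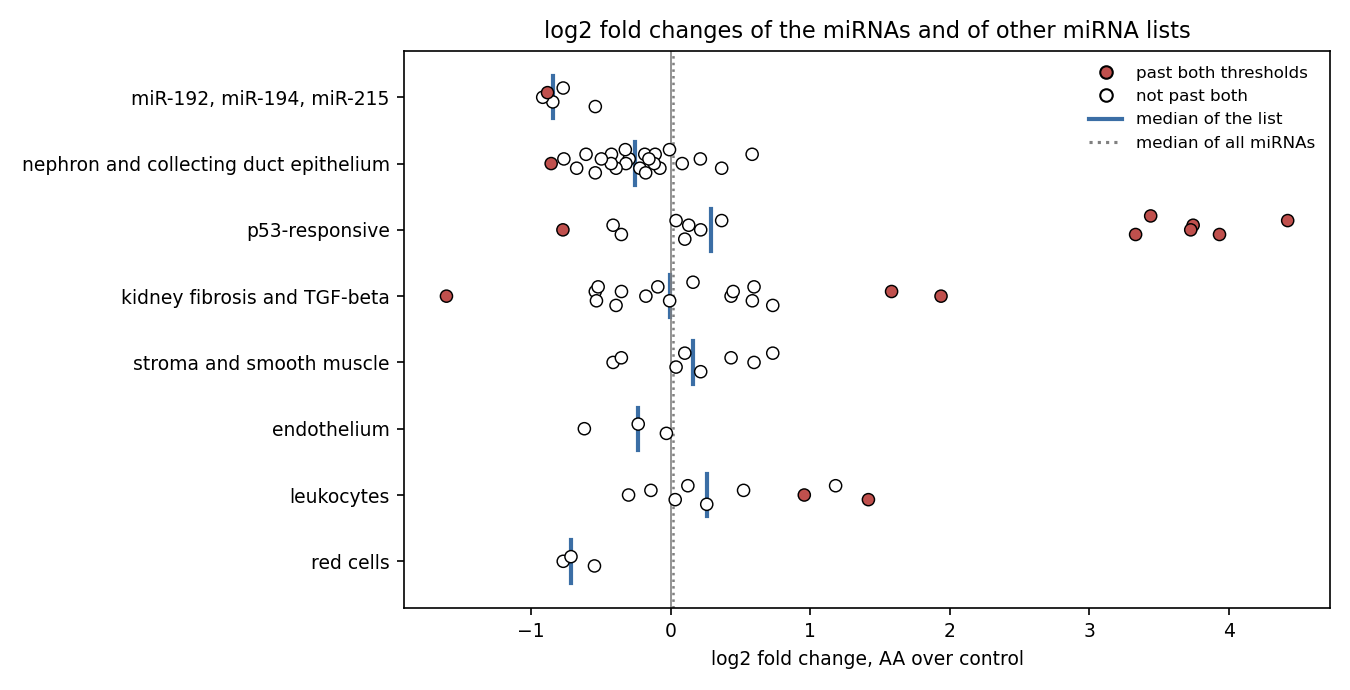
log2 fold change of AA-treated over control rats (horizontal axis) of each miRNA with a mean of at least 10 normalized counts, by list, with filled points past both thresholds, a bar at the median of the list and a dotted line at the median of all such miRNAs, 0.02. The 5 miRNAs of the miR-192, miR-194 and miR-215 hairpins lie between -0.92 and -0.54, and the nephron list has its median at -0.26. Without control rat 4, which is not drawn separately, miR-192 was at -0.28 and miR-192* at -0.19.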

How the data were processed

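Small RNA of 8 rat kidneys was sequenced on the Illumina Genome Analyzer II, with 1 library per rat. The authors masked adaptors, removed contaminated reads and assigned the rest to the rat miRNAs of miRBase release 16 with the miRanalyzer webserver at default parameters. CASAVA 1.7 is named in the submitters' processing notes, while a genome build and how reads matching more than 1 miRNA were treated are not given in the sources used here. The authors deposited whole-number read counts per mature miRNA, neither normalized nor pooled. The sample titles gave the group and number of each rat. The labels name separate rats, so that p-values measure the spread between animals.

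All 620 miRNAs were tested, unfiltered and over the 8 rats, with edgeR 4.0.16 (R 4.3.3, quasi-likelihood) on median-of-ratios size factors, with no covariate and Benjamini-Hochberg adjustment. Calls needed an adjusted p under 0.05 and mean normalized counts that differed over 1.5-fold. Single values were tested with exact permutation tests over the 70 labelings. The method was tested on simulated data, and no result of that test is given or relied on here. Alternatives were TMM, total counts, DESeq2 1.42.0, limma-voom (limma 3.58.1), robust moderation, 2 filters on low counts, a replicate block and the omission of rats. Permutations and figures used matplotlib 3.10.9, pandas 2.3.3, scipy 1.17.1 and numpy 2.4.6 on Python 3.11.15.

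The miRNAs and lists were chosen with earlier results of these data known. The miRNAs named are all rows found by name, the 5 most like miR-192 and miR-194 by the SD of the log2 ratio, and members of the lists. From the lists, those past both thresholds and a few abundant members were given, the latter chosen after their values were seen. The lists of p53-responsive and of fibrosis miRNAs leave out the 6 miRNAs described. Sequences and loci are from RefSeq (GRCr8). The mRNA and protein data of the study were not used here.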

Additional observations from a re-analysis of the deposited data

Results flagged for a closer look

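In 24 sets of 4 values, 1 for each group and each normalized count, ratio or share, the highest value was far from the other 3 in 9 sets, where chance gives about 1 in 20. The sets share rats and counts and are not independent. Control rat 4 gave 5 of the 9. Its miR-192 was at 1124303 normalized counts, its miR-192* at 378, its ratio of miR-192 to miR-194 at 31.0, its ratio of miR-192 to miR-215 at 7668 and its summed share at 6.92%. AA-treated rat 4 gave a ratio of miR-192 to miR-194 of 34.4 and of miR-192 to miR-215 of 4079. The remaining 2 were small departures within narrow ranges, a ratio of miR-194 to miR-215 of 144.4 in AA-treated rat 2 and of miR-194 to miR-194* of 216.6 in control rat 3.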

How the results depend on the processing

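The number of differentially expressed miRNAs was 56 and lay between 40 and 74 under 17 alternatives. miR-192, miR-192* and miR-215 kept a negative sign under all 17 alternatives and passed both thresholds under none, with adjusted p from 0.0807 to 0.485 for miR-192. The authors, who used DESeq with the same thresholds, name miR-192 and miR-194 among their differentially expressed miRNAs. Their call of miR-192 was thus not reached here under any setting. miR-194 was negative under all 17 and became differentially expressed under 7 of them, with log2 fold changes of -0.77 with DESeq2, robust moderation, the filterByExpr filter and the filter on at least 10 counts in every library, -0.83 with limma-voom, -0.82 with the replicate block and -0.95 without AA-treated rat 1. Omitting single rats gave -0.95 to -0.58. miR-194* was no longer called under 10 of 17, among them TMM (-0.84), total counts (-0.63) and both rats numbered 4 left out (-0.72), and omitting single rats gave -0.98 to -0.79. For miR-192*, miR-194*, miR-215 and the ratios other than that of miR-192 to miR-194, the alternatives were chosen after seeing the data.

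The replicate block raised no other of these miRNAs past the thresholds and kept the call of miR-194*. It gave -0.69 for miR-192 (adjusted p = 0.0807) and -0.56 for miR-215 (adjusted p = 0.0722), both by edgeR, and 74 calls over all miRNAs. Side by side by number, the AA-treated rat was the lower one at all 4 numbers for miR-192, miR-194, miR-194*, miR-215 and the summed share and at 3 of 4 for miR-192*. If the numbers do pair the rats, 4 pairs cannot give a permutation p below 0.125. Equal numbers in the 2 groups mark different animals. The deviations of same-numbered rats from their group means were first correlated over the 305 miRNAs with at least 10 counts in every library, where all 4 pairs exceeded 0.1 (0.21 to 0.52) and 7 of 8 rats correlated best with their own number. Over 2 further sets, tried afterwards, not every pair exceeded it, and all 3 sets were examined with the blocked results known. The correlations were -0.01, 0.14, 0.12 and 0.34 over the 370 miRNAs with a mean of at least 10 normalized counts, and -0.01 to 0.45 over the 240 with a mean of at least 100. Whether the numbers pair the rats thus depended on the set, and the unblocked values are the ones described.

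The differences in ratio between the groups moved when rats were left out, and those of 4 ratios changed sign when 1 rat was omitted. That of miR-192 to miR-194 was 0.13 on the log2 scale and lay between -0.22 and 0.46 with each rat left out, that of miR-192 to miR-215 between -0.46 and 0.45, that of miR-192 to miR-192* between -0.24 and 0.19 and that of miR-194 to miR-194* between -0.0081 and 0.21. With both rats numbered 4 left out, that of miR-192 to miR-215 was 0.13 and that of miR-194 to miR-215 was 0.0062. The last stayed between -0.38 and -0.01 when single rats were omitted, and that of miR-192* to miR-194* stayed above 0 throughout, from 0.00078 to 0.64. At 66 to 309 reads per library, miR-192*, miR-194* and miR-215 are limited by counting error more than miR-192 and miR-194.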
